A study of Mus musculus with 2 samples.

Results

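CTCF sites around the chemosensory receptor genes of the mouse were taken from a chromatin immunoprecipitation (ChIP-seq) map of newborn forebrain. Of the 56462 placed sites in the authors' optimal peak list, 810 had their summit within 100 kb of the body of a gene whose symbol starts with Olfr, Vmn1r or Vmn2r. The members were chosen by position and not by strength. Receptor genes at most 200 kb apart were linked into clusters, and a span ran from the first to the last receptor gene of a cluster. By this division 191 sites lay inside the spans of clusters, 441 in the 100 kb flanks of clusters, and 178 around receptor genes that stood alone. At the limit, the last site taken in was 99827 bp from Vmn1r239-ps, with signal values (peak strengths as the authors' peak caller gave them, on a scale that is not stated) of 8.7 and 11.5 in replicates 1 and 2, and the first left out was 100003 bp from Vmn2r56, with 27 and 12.3.

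The tissue was pulverised forebrain of B6NCrl mice at postnatal day 0, pooled from several dissections, with no sex recorded and no genotype or treatment beyond the strain. There was 1 group with 2 replicate libraries, numbered 1 and 2 in the labels, so no comparison between conditions was possible. Both replicates cite the same biosample and donor, so their spread may be technical. The control experiment named by the labels was not used here, and the sources used here do not give the read depth.

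CTCF, a DNA-binding protein with many zinc fingers, recognises a long and directional motif and halts cohesin as it extrudes loops of chromatin, and pairs of bound motifs that point towards each other often mark the ends of a loop. Olfr genes encode odorant receptors, and each olfactory sensory neuron expresses a single allele of a single receptor gene. Vmn1r and Vmn2r genes encode the receptors of vomeronasal sensory neurons. Outside these neurons the receptor genes are silent and lie in large arrays of repressive chromatin, and forebrain tissue holds few or none of the neurons that choose a receptor.

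The annotation held 1972 receptor genes, of which 1407 were Olfr, 327 Vmn1r and 238 Vmn2r genes, and 505 were pseudogenes. They fell into 81 clusters with 1923 genes and 53.1 Mb of span, with a median of 12 genes and at most 287 genes per cluster, and 49 genes stood alone.

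The strongest sites inside the spans are shown with their sequence because they are the exceptions in a sparsely occupied territory. Each line gives 30 bases from the GRCm38 (mm10) genome, 5′ to 3′ on the strand of the best match to the CTCF core motif. Capitals mark the 14 matched bases, and each site is named by its nearest receptor gene.
Olfr94 (chr17:37203808-37203837, minus strand): tcatttagCCACAAGGTGGCAGcatgaact
Olfr879-ps1 (chr9:37932696-37932725, minus strand): ttaagtagCCACCAGGTGGTGCtagtgact
Olfr283 (chr15:98390004-98390033, minus strand): aagacgtgCCACCAGGGGGCAGtgggggtc
Olfr54 (chr11:51033033-51033062, minus strand): aaaaatagACACCAGAGGGAGGaagagacc
Olfr996 (chr2:85561370-85561399, minus strand): actaatgaCCAGAAGGTGGCAAcgcatcca
Olfr545 (chr7:102507010-102507039, plus strand): cagaaatgTCACAAGGTGGCACccaagcac
Olfr827 (chr10:130228411-130228440, plus strand): tgatgctaCCACAAGGTGGCAGcatgacca
Olfr56 (chr11:49103465-49103494, minus strand): gcaaacagCCACATGGGGGCAGcagagagc
Vmn2r80 (chr10:79116744-79116773, minus strand): agcaatggCCACTAGATGGCGAgatttcac

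The strongest site of all those inside spans lay between receptor genes, 2801 bp from Olfr94 on chromosome 17 (peak 37203648 to 37203966). Replicate 1 gave it a signal value of 277, replicate 2 gave 240, and the optimal list 513. The next site, 8707 bp from Olfr879-ps1 on chromosome 9, had 172 and 150 in the replicates and 321 in the list. Replicates 1 and 2 gave 171 and 147 near Olfr283, whose match has no mismatch to the motif, and 165 and 149 near Olfr54. The Olfr94 site stood well above the others, which ran from 276 to 321 in the list without a wide gap. Of these 10 sites 9 were intergenic, and the site at Olfr56 lay in an intron of that gene, with 145 and 135 in the replicates. The site near Olfr546-ps1, with 158 and 125, held no match within 50 bp of its summit.

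CTCF sites were sparse inside the receptor gene clusters and common at their flanks. Inside the spans there were 3.6 sites per Mb of sequenced bases (95% exact Poisson interval 3.11 to 4.15), against 21.7 per Mb (21.5 to 21.8) in the genome away from receptor genes. The flanks held 27.9 per Mb (25.4 to 30.6), and the surroundings of lone receptor genes 17.7 per Mb (15.2 to 20.5). The density inside spans was thus 0.166 of that in the rest of the genome, and the density of flanks was 1.29 of it. These intervals cover counting error only, and the intervals of spans, flanks and the rest of the genome did not overlap. In bulk tissue a site bound in fewer cells and one bound less in each cell cannot be told apart.

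The change in density came at the edge of the span. In the outermost 25 kb inside the spans there were 5.87 sites per Mb (3.72 to 8.8), and in the first 25 kb outside there were 23.5 per Mb (19 to 28.7). Within the spans density was lowest far from any edge, with 13 sites and 1.01 per Mb (0.538 to 1.73) in the 12.9 Mb lying more than 500 kb inside. It was 2.76 per Mb between 250 and 500 kb from the edge and 4.95 between 100 and 250 kb. Only long spans reach the deepest bins, so depth and the size of the cluster cannot be told apart here. Clusters of 20 or more genes had 2.8 sites per Mb over their whole spans, and those of 5 to 9 genes 7.33. Outside, the highest density was 32.4 per Mb (27 to 38.5), between 50 and 75 kb from the edge, and its interval overlapped those of the bins beside it.

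**Figure D1:**
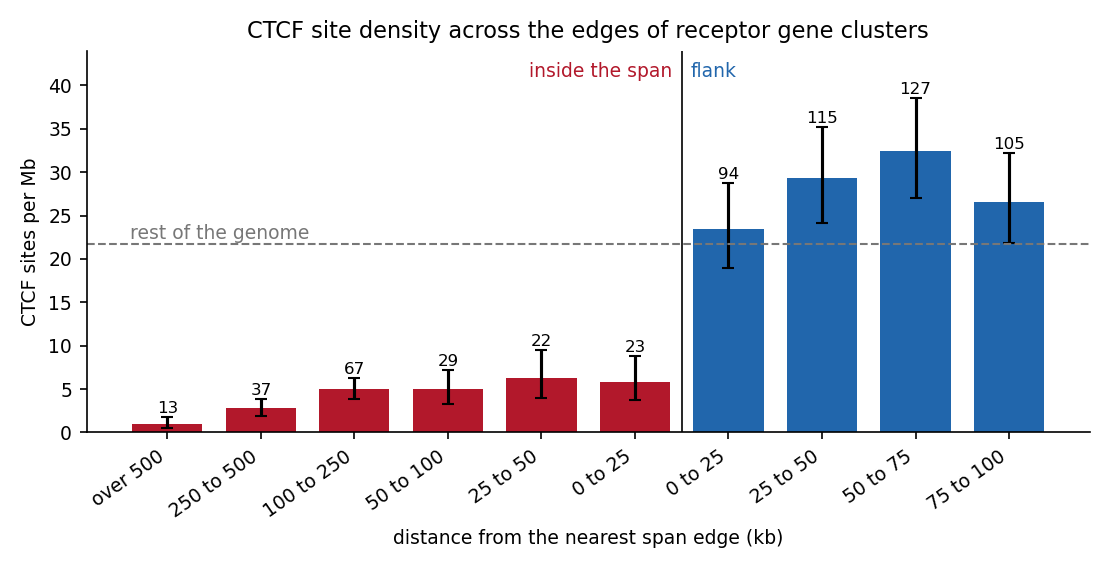
CTCF sites per Mb (y axis) in bins of distance from the nearest span edge in kb (x axis), with red bars inside the spans and blue bars in the flanks. Error bars are 95% exact Poisson intervals, the number above each bar is its count of sites, and the dashed line is the rest of the genome at 21.7 per Mb; the bars step from 5.87 to 23.5 per Mb across the edge.

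Part of the DNA inside the clusters is repeated elsewhere in the genome, where short reads cannot be placed with certainty. Of the positions inside spans, 64.7% began a 36-base word that occurs only there in the genome, against 73.3% in flanks and 82.9% in the rest of the genome. Per Mb of such unique positions the densities were 5.57 inside spans (4.8 to 6.41), 38.1 in flanks (34.6 to 41.8) and 26.1 in the rest of the genome. The order of spans, rest of the genome and flanks was the same on both scales. The sources used here give neither read length nor mapping rule, and their part in the result beyond this scaling was not tested.

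Weaker peaks were also sparse inside the spans. In the peak list called on both replicates together, at a q-value of 0.05, there were 300 peaks inside spans, or 5.65 per Mb, against 47.8 in flanks and 39.2 in the rest of the genome. For each 100 such peaks the optimal list held 63.7 inside spans, 58.4 in flanks and 55.3 elsewhere. With every entry of that list, whatever its q-value, spans held 17 peaks per Mb, flanks 113 (108 to 118) and the rest of the genome 115, so flanks were no longer above the rest of the genome there.

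Flanks were also the more gene-rich DNA. They held 18.5 protein-coding genes other than receptors per Mb, the spans 3, and the rest of the genome 7.76. Sites beyond 1 kb of the transcription start sites (TSSs) of those genes were then counted per Mb of all sequenced bases. There were 21.6 in flanks (19.4 to 24.1), 3.11 inside spans (2.65 to 3.62) and 18.1 in the rest of the genome. Bases near TSSs were not taken out, so the density beyond 1 kb is understated, more so where genes are dense. GC content was 39% inside spans, 42.4% in flanks and 41.7% in the rest of the genome. The part of gene density and base composition in the site density was not tested beyond these values.

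Inside the spans the widest gaps between receptor genes had the highest density, but sites were found in gaps of every length. Gaps of 100 to 200 kb held 53 of the 191 sites at 8.83 per Mb (6.62 to 11.6), gaps of 50 to 100 kb held 39 at 4.95 per Mb (3.52 to 6.77), and gaps of 20 to 50 kb held 32 at 2.22 per Mb (1.52 to 3.13). The bodies of the receptor genes themselves held 31 sites at 2.17 per Mb (1.48 to 3.09). The shortest gaps, under 10 kb, held 16 sites at 4.5 per Mb (2.57 to 7.31), so density did not rise evenly with the length of the gap. The median inside site lay 7708 bp from the nearest receptor gene body, and 110 of the 191, or 57.6%, lay within 10 kb of one. The share of span DNA this close to a receptor gene body was not measured, so no preference for receptor genes is read from these values.

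Of all 810 members, 37 had their summit in the body of a receptor gene, 29 of them Olfr, 4 Vmn1r and 4 Vmn2r genes. By annotation 16 of these lay in an intron, 12 in an exon outside the coding sequence of a protein-coding gene, 4 in a coding exon and 5 in an exon of a pseudogene or other noncoding gene. The share of gene body DNA that is coding was not measured, so nothing is read from these counts.

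Some sites inside the spans belonged to other genes. Of the 191, 26 (13.6%) lay within 1 kb of the TSS of a protein-coding gene that is no receptor, as did 99 of 441 flank sites (22.4%) and 36 of 178 around lone genes (20.2%), against 16.6% of the whole list. The 26 sites belonged to 23 genes, and 9 of those genes had symbols starting with Zfp or Zkscan, zinc finger genes that themselves occur in arrays. Such symbols made up 23 of the 159 protein-coding genes other than receptors inside the spans (14.5%) and 1.7% of those in the rest of the genome, and their part in the 9 was not tested. The strongest at a gene with a known product was that of Tcaf2, a regulator of TRP channels, with 134 in replicate 1, 96.9 in replicate 2 and 232 in the list, and Clcn4, a chloride/proton exchanger, had 116, 113 and 230. Such sites filled 16 of the 53 in the longest gaps and none in gaps under 20 kb.

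The sites inside the clusters had a median strength near that of the whole list and a lower upper quartile. Their median signal value was 66.1 (95% order-statistic interval 56.4 to 84.4, middle 50% of sites 33.6 to 136), against 64.3 (32.2 to 165 for the middle 50%) in the whole list. Flank sites had a median of 81.5 (66.4 to 94.3) and sites around lone genes 71.4 (54.6 to 94.6). In replicate 1 the medians were 36.2 inside, 45 in flanks and 34.9 over the list, and in replicate 2 they were 32.7, 36.8 and 30.2. The intervals of the inside and flank medians overlapped. Of the inside sites 91.1% (86.2 to 94.4, Wilson) overlapped a peak of the conservative list, and of flank sites 89.6%, with 87.4% over the whole list.

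**Figure D2:**
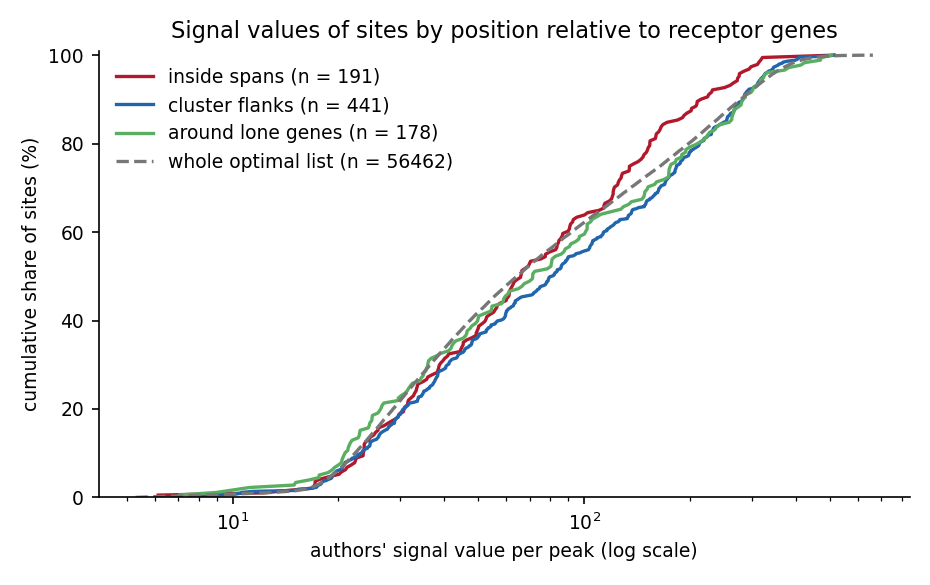
Cumulative share of sites in percent (y axis) against the authors' signal value on a log axis (x axis) for sites inside spans, in flanks, around lone receptor genes and in the whole optimal list. The inside curve follows the whole list up to its median of 66.1 and lies above it at high values, and the flank curve lies to the right.

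Agreement between the replicates was like that of the list. After centring on the median ratio of the whole list, the log2 ratio between both replicates had an SD of 0.49 inside spans, 0.50 in flanks and 0.50 in the list. All 191 inside sites had a peak in both replicate lists, as did nearly all of the whole list. Of its 56462 sites 89 lacked a peak in replicate 1 and 139 in replicate 2. The widest differences were at weak sites: an intron of Uqcrb, a subunit of respiratory complex III, had 23.7 in replicate 1 and 3.35 in replicate 2, and a site 56382 bp from Olfr1322 on the X chromosome had 6.16 and 22. In the list these had signal values of 26.3 and 27.6, far under the member median of 76.8.

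**Figure D3:**
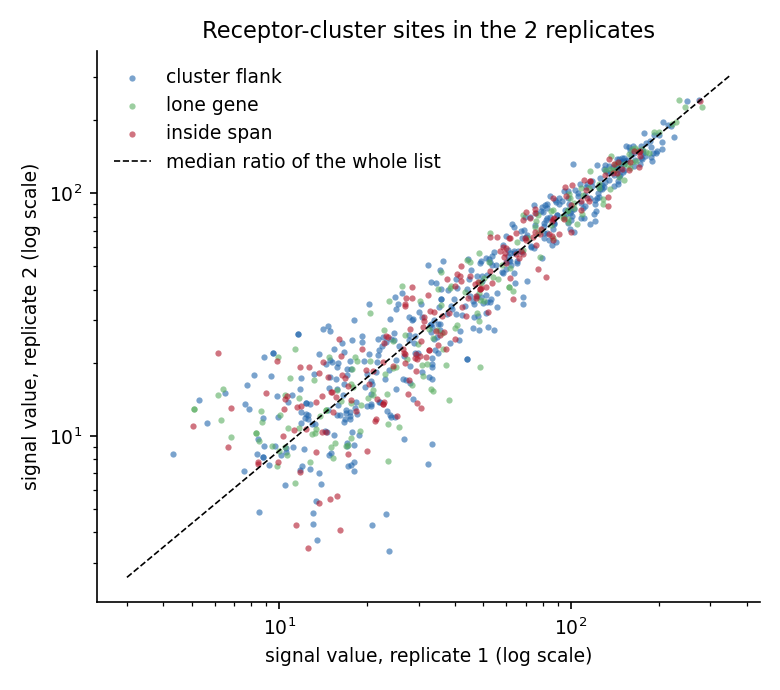
Signal value in replicate 1 (x axis) against replicate 2 (y axis), both on log axes, for each member, coloured by its class; the dashed line is the median ratio of the whole list. Sites of the 3 classes lie along the same line and scatter more at low values, as the SD of the log2 ratio of 0.49 inside spans and 0.50 over the list states.

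Most of the sites carried the CTCF core motif. A match of 14 bases with at most 2 mismatches, on either strand and within 50 bp of the summit, was found at 143 of 191 inside sites (74.9%, Wilson 95% interval 68.3 to 80.5), 302 of 441 flank sites (68.5%, 64 to 72.6) and 119 of 178 sites around lone genes (66.9%). The share of the whole list was 66.6%. In windows 1000 bp away it was 1.05% for inside sites, 3.63% for flank sites and 2.91% over the list. Inside spans 19 of the 143 matches had no mismatch, or 9.95% of the 191 sites, close to the 9.44% of sites in the whole list. Sites with a match had a median signal value of 69.4 inside spans, 113 in flanks and 93 over the list, and sites without one 53.9, 43.8 and 38.3.

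Repeats carried some of these matches. Summits lay in soft-masked repeat sequence at 20 of 191 inside sites (10.5%, 6.88 to 15.6) and at 66 of 441 flank sites (15%), against 17.8% in the whole list, although 50% of the bases inside spans were soft-masked. The most common first 12 bases of a match, CCAGAAGAGGGC, opened 53 of the 564 matches of members (9.4%), and all 53 lay in soft-masked repeat. They were weak, with a median signal value of 37.1 against 112 for the other matches. Over the whole list this opening was found in 12.3% of matches, with medians of 40.8 and 109. It was chosen after the values were seen, and the repeat family was not identified here; the B2 family of short interspersed repeats is known to carry CTCF motifs.

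One sequence recurred at 6 members around different receptor genes, none of them with its summit base in soft-masked repeat. The 30 bases at the pseudogene Olfr1069-ps1 on chromosome 2 were found unchanged at a site 77678 bp from Vmn2r25 on chromosome 6. A further 4 members were within 3 differences. The lines below show all 6 sites, aligned on the match in capitals, to let the shared bases be read across clusters on 6 chromosomes.
Olfr1069-ps1 (chr2:86464887-86464916, minus strand): atgtgccgCCACTAGATGGTGCtaaacctc
Vmn2r25 (chr6:123931154-123931183, plus strand): atgtgccgCCACTAGATGGTGCtaaacctc
Vmn2r-ps76 (chr7:85818285-85818314, plus strand): atgtgtcgCCACTAGATGGTGTtaaacctc
Olfr163-ps1 (chr16:3633270-3633299, minus strand): atgtgcggTCACTAGATGGTGCtaaacctc
Vmn2r81 (chr10:79322527-79322556, minus strand): atgtgccaCCACTAGATAGTGCtaaacctc
Vmn1r234 (chr17:21231817-21231846, plus strand): acatgccgTCACTAGATGGTGCtaaacctc

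Counted from the first base shown, the substitutions against Olfr1069-ps1 were C6T and C22T at Vmn2r-ps76, C7G and C9T at Olfr163-ps1, G8A and G18A at Vmn2r81, and T2C, G3A and C9T at Vmn1r234. Signal values differed between the identical copies: Olfr1069-ps1 had 75.1 in replicate 1 and 86.2 in replicate 2, and the Vmn2r25 copy 32.7 and 22.6. The other 4 ranged from 52.2 to 84.4 in the list. Reads from identical sequence may be shared between copies, and the flanking bases that would separate them were not compared. Within 4 differences of the same 30 bases there were 37 of the 37616 matches of the whole list (0.0984%), against 6 of 564 in members (1.06%) and 5 of 143 inside spans (3.5%). None of the 6 members and 9 of the 37 in the whole list had the summit base in soft-masked sequence. Masking of the 30 bases themselves was not scored. This sequence was picked out after the values were seen, and the counts are given without a test.

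Other pairs of sites differed by a single base. A site 1488 bp from Olfr54 on chromosome 11, the fourth strongest inside a span, and one near Olfr1375 in the same cluster differed at G21A, within the match. Replicates 1 and 2 gave 165 and 149 at the first and 69.9 and 64.2 at the second. The intronic sites of Vmn1r27 and Vmn1r20 in neighbouring clusters of chromosome 6 differed at A4G, outside the match, and both were weak, with 23.7 and 20.4 in the list.

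Few receptor genes had a site near a TSS. Of 1972 receptor genes, 14 (0.71%, Wilson 0.423 to 1.19) had one with its summit at most 1 kb from a TSS, and of 20472 other protein-coding genes 39.4% did. By family these were 11 of 1407 Olfr, 3 of 327 Vmn1r and 0 of 238 Vmn2r genes, where the upper limit of the Wilson interval is 1.59%. Coding genes and pseudogenes had similar shares, 10 of 1466 (0.682%) and 4 of 505 (0.792%), with overlapping intervals. Of the 14 sites 12 lay inside spans and 10 held a match. Over all their bases the spans held only 3.6 sites per Mb. Whether receptor starts differ from the DNA around them was not tested.

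The strongest of them is shown with the pair that follows, since a site this close to a receptor TSS is rare in these data. Capitals again mark the matched bases.
Olfr557 (chr7:102695568-102695597, plus strand): ccacatggCCACAAGAGGGCAGcatccaaa
Olfr1542-ps1 (chr10:130093030-130093059, minus strand): aggtctgtCCACCAGATGGCGGtgcagagc
Olfr556 (chr7:102665519-102665548, plus strand): aaaagaagTCACAAGGTGGCAGcagatctt
The site at Olfr557 was 320 bp from the TSS and had 112 in replicate 1 and 103 in replicate 2. That of the pseudogene Olfr1542-ps1 had 94.6 and 77.9 and no mismatch. Olfr1069-ps1, shown above, followed with 75.1 and 86.2, then Olfr556 with 67.6 and 58 and Olfr156 with 76.9 and 48.5 and no match. The replicates ranked these 5 sites differently below the first.

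Genes that serve receptor choice and signalling had sites in a share near that of other genes. Of a list of 30 such genes 11 (36.7%, 21.9 to 54.5) had a summit this close to a TSS, beside 39.4% of protein-coding genes other than receptors. Kdm1a, the histone demethylase that acts in receptor choice, had 189 in replicate 1 and 166 in replicate 2. Gnal, the olfactory G protein subunit that is also abundant in the striatum, had 104 and 73.1, and Bcl11b, a transcription factor of olfactory and cortical neurons, had 78 and 72.2. Lbr, the lamin B receptor that tethers heterochromatin to the nuclear envelope, had 33.5 and 20.6, and Ebf2, a transcription factor of the olfactory lineage, 29.2 and 13.5. No site was within 1 kb of a TSS of Omp, the marker protein of mature olfactory neurons, Adcy3, their adenylyl cyclase, or Trpc2, the vomeronasal channel; these 3 names were chosen after the values were seen. Weaker sites of the list lay at Ebf4, Gnb1, Lhx2, Gnai2, Cngb1 and Gnao1, with signal values from 12.4 to 41.2 in the optimal list. The list was a mix of broadly expressed and neuron-specific genes, and no pattern is read from the 3 names without a site.

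The clusters differed widely in how many sites they held. Of the 81 clusters 37 had no site inside, and the 10 clusters with the most sites held 91 of the 191 (47.6%) in 9.68 Mb of span. Clusters of 20 or more genes had 2.8 sites per Mb inside (2.29 to 3.39), those of 10 to 19 genes 4.45 (3.21 to 6.02) and those of 5 to 9 genes 7.33 (4.83 to 10.7). Those of 2 to 4 genes had 7.05 (4.11 to 11.3), no higher than the class before. The 23 clusters of this smallest class covered only 2.41 Mb of span and made up 17 of the 37 without a site. The 10 clusters with most genes held 957 receptor genes and 65 inside sites in 21.1 Mb.

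Families differed too. Clusters of Olfr genes alone had 4.75 sites per Mb inside (3.96 to 5.63) and 35.3 in their flanks (31.5 to 39.6). Clusters of Vmn1r genes alone had 0.698 inside (0.226 to 1.63) and 19.2 in flanks, and those of Vmn2r genes alone 3.22 inside (2 to 4.93) and 11.1 in flanks. The span positions with a unique 36-base word were 75.5% in Olfr clusters, 37.9% in Vmn1r clusters and 41% in Vmn2r clusters. Olfr clusters thus differed from both others in uniqueness as well as in family, and these cannot be told apart there. Vmn1r and Vmn2r clusters were close in mean uniqueness, and the intervals of their inside densities did not overlap. Sites were uneven within both families: 10 of 13 Vmn1r and 10 of 14 Vmn2r clusters had none inside. The Vmn2r cluster from Vmn2r-ps35 to Vmn2r36 on chromosome 7 held 7 of the 21 Vmn2r sites, at 16.2% unique positions. The intervals do not cover this spread between clusters, and the part of family was not tested. The mixed clusters were closer in uniqueness: those of Vmn1r with Vmn2r genes had 68.4% unique positions and 0.801 sites per Mb inside (0.26 to 1.87), and those of Olfr with Vmn2r genes 69.1% and 5.22 (3.52 to 7.45). No cluster of Olfr genes alone lacked a member altogether, and 5 of 13 Vmn1r and 4 of 14 Vmn2r clusters did.

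**Figure D4:**
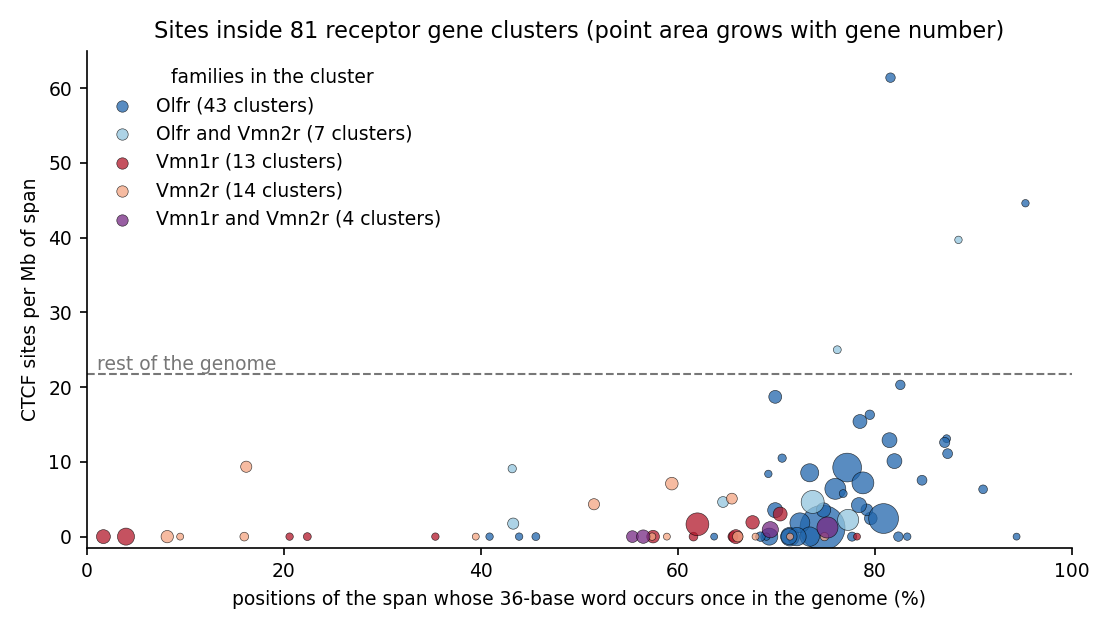
CTCF sites per Mb of span (y axis) against the share of span positions whose 36-base word occurs only there in the genome, in percent (x axis), for the 81 clusters, coloured by receptor family, with point area growing with the number of genes. Clusters above 75% unique positions had 6.39 sites per Mb together, those of 65 to 75% had 2.31, and clusters of every group other than Olfr with Vmn2r lie at 0.

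Empty clusters were also found where most positions were unique. Among the clusters of Olfr genes alone with 30 or more genes, 5 had no site inside 5.19 Mb of span holding 208 genes, with 69.3% to 73.4% unique positions and 0 pooled-list peaks at a q-value of 0.05. The other 7, with 72.4% to 80.9% unique positions, had 54 sites and 82 such peaks in 13.7 Mb. The ranges of unique positions overlapped only from 72.4% to 73.4%. Over all clusters, 13 of 26 with 65 to 75% unique positions and 5 of 29 above 75% had no site inside. The part of uniqueness in the empty clusters was not tested. The largest of the 5 ran from Olfr24 to Olfr18 on chromosome 9 (18751507 to 20336094) with 49 genes. At the other end of the scale, the Vmn1r clusters at 20099680 to 21614985 and at 21832351 to 23251682 of chromosome 7 had 3.99% and 1.7% unique positions and no site in the span or in either flank.

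The largest cluster lay on chromosome 2, from Olfr987 to Olfr1274-ps (85330779 to 90403897), with 287 Olfr genes in 5.07 Mb. It had 6 sites inside, or 1.18 per Mb, and its strongest, near Olfr996, had 172 and 143 in the replicates. On its left the nearest site was 46927 bp from the edge with 18.3 and 13.7 in replicates 1 and 2, and on its right it was 71033 bp away, in an intron of the phosphatase gene Ptprj, with 190 and 136. The next cluster by size, on chromosome 9 from Olfr160 to Olfr986, had 123 genes, 6 sites inside and 2.42 per Mb. Its nearest left site had 68.2 and 37.3, and its nearest right site, at the TSS of Zfp202, 14.5 and 10.4.

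The cluster with the most sites inside was the third by number of genes. It holds class I odorant receptors on chromosome 7, from Olfr543 to Olfr650-ps1 (102476579 to 104207865), and also surrounds the beta-globin genes. Its right end was set by the linking distance of 200 kb. The next cluster, from Olfr651 to Olfr692 (104550133 to 105369355), was counted apart, so these values need not cover the whole class I array. Its 114 receptor genes came with 16 sites, or 9.24 per Mb, with signal values from 14.3 to 298. Sites were unevenly spread: 8 lay left of a stretch of 592600 bp between neighbouring peak starts with none, and the others to its right. Inside the span 5 matches were on the plus strand, 7 on the minus strand, and 4 sites held none.

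The sites that frame the receptor genes around the globin genes are shown because these 4 members lie inside a receptor cluster but next to other genes. The gap between receptor genes there was 87621 bp long and held 5 beta-globin genes, and CTCF sites are known to flank the globin locus. A match was found at the following pair.
6911 bp from Hbb-bt (chr7:103807064-103807093, minus strand): tcagtcaaCCTCAAGGGGGCAGtattgagc
21391 bp from Hbb-y (chr7:103874634-103874663, minus strand): cgttttcaCCACTAGAGGGAAGacaattat
The site by Hbb-bt, an adult beta-globin gene, had 40.6 in replicate 1 and 46.4 in replicate 2. The site 21391 bp from Hbb-y, an embryonic one, had 21.3 and 11.6. Between them a site 20047 bp from Hbb-y had 48.8 and 40.1 with no match, and an overlapping listed peak beside it, with 14.3 in the list, drew on the same replicate peaks.

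**Figure D5:**
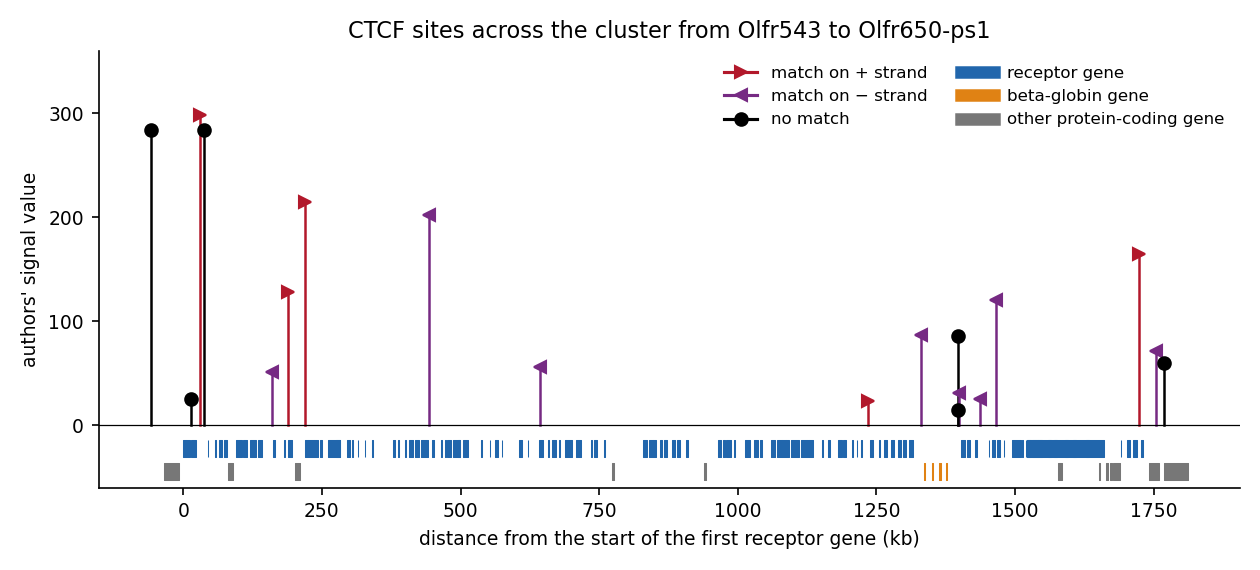
Sites in the cluster from Olfr543 to Olfr650-ps1 and its flanks: the authors' signal value (y axis) against distance from the start of the first receptor gene in kb (x axis), with the marker giving the strand of the motif match or its absence, and gene bodies drawn below the axis. The values run up to 298, and no site lies in the stretch of 592600 bp between the left and right groups.

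Other clusters were denser than the 3.6 sites per Mb of all spans, though only the first named here exceeded the 21.7 of the rest of the genome. The cluster of 8 genes from Olfr70 to Olfr155 on chromosome 4 (43694784 to 43857595) had 10 sites inside 0.163 Mb, or 61.4 per Mb. A further 11 sites lay in the 19-gene cluster from Olfr56 to Olfr1380 on chromosome 11, at 18.7 per Mb, and 10 in the 27-gene cluster from Olfr458 to Olfr47 on chromosome 6, at 12.9 per Mb. The cluster from Olfr1442 to Olfr1505 on chromosome 19, with 64 genes, had 9 sites at 7.19 per Mb. Some of these sites lay within 1 kb of a TSS of other genes. These were Mgat1 and Btnl9 on chromosome 11, Tcaf1 and Tcaf2 on chromosome 6, and Zfp91 and Lpxn on chromosome 19. With the cluster from Olfr543 to Olfr650-ps1 these were the 5 clusters with most sites inside, and all of them were made of Olfr genes alone.

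The strongest flank sites lay in varied settings, from the start of another gene to intergenic DNA. The first was shared by the divergent starts of Rab2b, a vesicle transport GTPase gene, and Tox4, a chromatin protein gene, 68024 bp from Olfr1513 on chromosome 14. It had 275 in replicate 1 and 242 in replicate 2, and no match. The next, in an intron of Atxn7, a subunit gene of the SAGA complex, had 249 and 239. The third, 84093 bp from the largest cluster at Olfr987, had 221 and 189, and the fourth, 18660 bp from Olfr220 on chromosome 1, 215 and 191. The remaining 6 of the 10 strongest had 358 to 404 in the list. Both replicates were high at each of the first 4, and none stood apart from the others by its replicate ratio.

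The sites below are those nearest to an edge of one of the 10 largest clusters that matched the motif without a mismatch, 5 of 17 such nearest sites. In the order shown they lay 71, 18.8, 4.97, 23.8 and 39.7 kb outside the edge. The last was 255 bp from the TSS of Eif3f.
Olfr1274-ps, right edge (chr2:90474909-90474938, plus strand): aactgtgtCCACTAGGGGGCAGtagcaaac
Olfr160, left edge (chr9:37690132-37690161, plus strand): gtatgttaCCACCAGGTGGCAGtatgagaa
Vmn2r-ps62, left edge (chr7:84805409-84805438, plus strand): aagtaaagCCACTAGGTGGCAGtctgtccc
Olfr467, left edge (chr7:107788406-107788435, minus strand): tgtagccaCCACTAGATGGCACttgcactc
Olfr519, right edge (chr7:108934142-108934171, minus strand): cacagttgCCACCAGGTGGCGGcacagagt
Replicates 1 and 2 gave 190 and 136 at the Olfr1274-ps edge, 68.2 and 37.3 at the Olfr160 edge and 26.3 and 38.9 at the Vmn2r-ps62 edge. They gave 102 and 86 at the Olfr467 edge and 152 and 140 at the Olfr519 edge. Motifs at the Olfr160, Vmn2r-ps62 and Olfr519 edges pointed into the cluster, and those at the other 2 pointed away. A site near Olfr291, inside the same cluster as the Vmn2r-ps62 edge, shared all 30 bases with it and had 11.4 and 4.3.

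Most cluster edges had a site within 100 kb. Of 162 edges 111 did, and the nearest lay a median of 23219 bp out (middle 50% 9662 to 43274), the closest being 339 bp from Olfr90 on chromosome 17, with 155 and 135 in the replicates. Sites within 25 kb were found at 59 edges and within 10 kb at 29. Both flanks of 41 clusters had a site and neither flank of 11 did. Of the 20 edges of the 10 largest clusters 17 had a site, with signal values from 23.8 to 323 and a median of 169, and 14 of the 17 held a match.

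Flank motifs did not point into the clusters more often than out. A match on the plus strand left of a span or on the minus strand right of it was counted as pointing in, which was so for 131 of 302 flank matches (43.4%, Wilson 37.9 to 49). On left flanks the share was 45.2% and on right flanks 41.4%. It was 50% (39.3 to 60.7) in the first 25 kb and 36.2% (26.6 to 47.2) between 50 and 75 kb. Among flank sites above the median signal value of the whole list 38.6% pointed in (32.1 to 45.5), and among the rest 52.4% (42.9 to 61.7), with overlapping intervals.

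Pairs of edges gave no common arrangement. In 28 clusters the nearest site on each side held a match, and both pointed in at 10, both out at 7, and both along the same strand at 11. With the strongest matched site on each side, 34 clusters could be scored, with 4 both in, 12 both out and 18 on the same strand. Inside the spans 56 of 143 matches were on the plus strand (39.2%, 31.5 to 47.3), where the whole list had 50%.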

How the data were processed

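CTCF ChIP-seq peak lists of 2 replicates on mm10, per the labels, were used as deposited: 1 list per replicate, 1 called on both, and the lists kept by an irreproducible discovery rate (IDR) cut, optimal and conservative. The authors' lists gave a signal value, −log10 of a q-value, an IDR score and a summit offset per peak. The sources used here give no aligner, caller, read length or depth, so depth is unknown. The signal value of a replicate at a site was that of its strongest overlapping peak, which neighbouring sites can share.

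Genes were those of GENCODE M21. Sequenced bases excluded N. The 8 unplaced peaks were left out. Word uniqueness was counted over the assembled chromosomes at evenly spaced positions. The CTCF core motif scan and the word count were tested on simulated sequence. Intervals were exact Poisson, Wilson or order-statistic, at 95%, and cover counting error only; no test was made, since the design holds 1 group. Python 3.11.15, numpy 2.4.6, pandas 2.3.3, scipy 1.17.1, pysam 0.24.0, numba 0.67.0 and matplotlib 3.10.9 were used.

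The members, gene lists and settings were chosen with earlier results of these data known. Named were the 10 strongest sites inside spans and in flanks, the 5 strongest at receptor TSSs, the nearest site at each edge of the 10 largest clusters, the 5 widest replicate differences each way, the 10 largest clusters, the 5 with most sites, and up to 5 genes of the pathway list. Not every site of this rule is printed. The other sites, clusters and genes named, and the splits by uniqueness, gap length, gene density, zinc finger symbols and shared sequence, were chosen after the values were seen. Alternatives were the conservative list, the stronger sites, each replicate alone, other flank, linking, TSS and motif distances, coding receptor genes only and unique positions.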

Additional observations from a re-analysis of the deposited data

How the results depend on the processing

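Of 72 alternative values 59 stayed within the interval of the value reported or within 1.5 times a count, and 13 moved. Site density was lower inside spans than in flanks under every alternative run for it. With only sites above the median signal value, densities were 1.83 sites per Mb inside spans and 15.5 in flanks, the motif share was 80.4% in flanks and 77.3% inside, the opposite order to the whole list, and 8 receptor genes had a site at a TSS; fewer sites enter by construction. Per Mb of unique positions the densities were 5.57 and 38.1. With at most 1 mismatch the motif shares were 48.2% inside and 37.2% in flanks. A TSS window of 5 kb gave 75 receptor genes. Flanks of 50 kb gave a flank motif share of 74.6%, the cause of which was not tested. Linking genes at 100 kb gave 2.94 inside and 24.6 in flanks, and linking at 500 kb gave 5.04 inside, since longer gaps then count as span, with motif shares of 69.4% inside and 69.9% in flanks.

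Leaving out either replicate gave 3.58 to 3.6 sites per Mb inside, 27.2 to 28.5 in flanks, motif shares of 71.6% to 74.9% inside and 66.3% to 68.4% in flanks, 41.2% to 43.5% of flank motifs pointing in and 15 receptor genes in both cases. No paired analysis was possible because there is 1 group. Read depth is unknown, so which weak sites were missed cannot be told, and the control was not used here.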
